A study of Macaca mulatta with 10 samples.

Results

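The receptor for glial cell line-derived neurotrophic factor (GDNF) and the transcription factor genes that GDNF is known to regulate in rodent spermatogonia were followed in the testes of 10 juvenile male rhesus macaques. The set holds 7 genes chosen by symbol: the receptor genes GFRA1, RET and GFRA2 and the target genes ETV5, BCL6B, LHX1 and POU3F1. The count table held 26813 loci. A row under the gene's own symbol was found for 5 of the 7 genes. GFRA2 was measured through a locus that joins neighbouring gene models, so 6 genes were measured. LHX1 has a transcript model with 5 exons but no row in the count table, whose loci all reach 1 CPM (counts scaled to library size) in at least 3 libraries, and its level was not analysed here.

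All animals were wild type, and RNA came from the whole right testis, with stranded total RNA libraries. Vehicle was infused in TP07, TP09 and TP11, which were 24, 14 and 15 months old. Pulsatile FSH and LH, the pituitary gonadotropins that act on Sertoli and Leydig cells, were infused for 48 h in TP08, TP10 and TP12, which were 22, 14 and 15 months old. The same infusion ran for 96 h in TP15, TP16, TP17 and TP18, all 14 months old. How long the vehicle animals were infused is not given in the sources used here. The series asks which testicular genes change when undifferentiated spermatogonia commit to differentiation.

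GDNF is secreted mainly by Sertoli and peritubular cells and binds GFRA1, a co-receptor held in the membrane by a lipid anchor. The pair then engages RET, a receptor tyrosine kinase that passes the signal to SRC, the PI3 kinase and AKT route and the RAS and ERK route. In mouse, this signal keeps spermatogonial stem cells renewing, GFRA1 marks the undifferentiated spermatogonia, and cultured stem cells respond to GDNF by raising ETV5, BCL6B, LHX1 and POU3F1.

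Libraries held 21824233 to 30375928 counts over the listed loci. Markers of germ, Sertoli, Leydig, peritubular, Schwann, macrophage and endothelial cells were all present, with no measured marker at 0 in any group. Leydig cell markers had the largest median rise of these lists: 5 of 6 were higher at 48 h and at 96 h. That is 83.3% at each time, beside 14.8% at 48 h and 17.3% at 96 h of all loci with a gene symbol. Each library comes from a separate animal. The 96 h animals carry the highest animal numbers, so a batch by animal number cannot be told apart from 96 h of gonadotropin. Values below are CPM after TMM scaling, a library-size correction, unless they are said to be log2 differences.

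GFRA1 lies on chromosome 9 from 111969717 to 112194495 on the minus strand (rheMac8, exon limits of the deposited models) and has 9 transcript models. Its level was 44.4 CPM in TP07, 60.0 in TP09 and 59.5 in TP11 under vehicle. At 48 h it was 14.1 CPM in TP08, 21.6 in TP10 and 15.7 in TP12. At 96 h it was 35.6 CPM in TP15, 18.9 in TP16, 26.5 in TP17 and 25.8 in TP18. Every vehicle animal was above every treated animal, and the 96 h animals spread across the upper end of the 48 h range and beyond it. Group means were 54.6 ± 8.89 CPM (SD, n = 3) in vehicle, 17.1 ± 3.97 (n = 3) at 48 h and 26.7 ± 6.85 (n = 4) at 96 h.

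GFRA1 fell at 48 h, with a log2 difference of -1.67 ± 0.23 (SE, 95% interval -2.19 to -1.16, edgeR adjusted p = 0.00181). At 96 h the log2 fold change against vehicle was -1.03 ± 0.21 (95% interval -1.50 to -0.57, edgeR adjusted p = 0.00918). It was the only member called at 48 h, where 3.2% of the 13495 loci that stand for a gene symbol were called lower and 14.8% higher. At 96 h against vehicle the backgrounds were 6.65% lower and 17.3% higher. The authors' deposited table gives GFRA1 log2 fold changes of -1.67 and -1.03 for these comparisons, with adjusted p of 8.54e-09 and 0.000187.

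The vehicle and 48 h groups hold animals of matching age, which allows the fall to be read within age classes. The animals over 20 months gave a 48 h to vehicle ratio of 0.317 (TP08 over TP07). The 14-month animals gave 0.360 (TP10 over TP09) and the 15-month animals gave 0.264 (TP12 over TP11). GFRA1 was therefore lower in all 3 age classes. At 96 h the fall against vehicle was -1.16 on the log2 scale without the animals over 20 months (edgeR adjusted p = 0.018).

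Between 48 h and 96 h the GFRA1 mean was higher at the later time, but the groups overlapped: TP16 at 96 h, with 18.9 CPM, lay below TP10 at 48 h, with 21.6. The log2 fold change of 96 h against 48 h was 0.64 ± 0.22 (95% interval 0.16 to 1.12), which edgeR did not call (unadjusted p = 0.0137, adjusted p = 0.157). None of the 6 measured members was called in this comparison, in which 0.445% of loci were called lower and 1.19% higher. GFRA1 was the 1 member with an unadjusted p under 0.05. DESeq2, limma voom and exactTest each called 0 members.

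RET, the signalling partner of GFRA1, lies on chromosome 9 from 38485064 to 38538266 on the plus strand. It was at 9.21, 7.86 and 7.46 CPM in the vehicle animals TP07, TP09 and TP11. At 48 h the values were 7.32, 7.61 and 9.03 CPM in TP08, TP10 and TP12. At 96 h they were 8.18, 9.37, 6.93 and 7.80 CPM in TP15 to TP18. The ranges of all 3 groups overlapped, with means of 8.18 ± 0.917, 7.99 ± 0.915 and 8.07 ± 1.01 CPM. The log2 fold change was -0.03 ± 0.18 at 48 h (95% interval -0.42 to 0.36, edgeR adjusted p = 0.92). At 96 h it was -0.02 ± 0.17 (95% interval -0.39 to 0.35, edgeR adjusted p = 0.949). Neither interval reaches the fall measured for GFRA1 in the same comparison.

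GFRA2, the co-receptor preferred by neurturin, was measured as a joined locus on chromosome 8 from 21584227 to 21690799 on the minus strand. RefSeq's macaque gene table names one of the joined identifiers GFRA2, and the reads cannot be divided between them. The locus was at 11.9, 7.98 and 10.4 CPM in TP07, TP09 and TP11. At 48 h it was at 12.4, 7.47 and 11.1 CPM in TP08, TP10 and TP12. At 96 h it was at 6.78, 10.0, 5.26 and 11.6 CPM in TP15 to TP18. The groups overlapped, and the spread was widest at 96 h, where TP15 and TP17 were low and TP16 and TP18 high. The log2 fold change was 0.03 ± 0.30 at 48 h (95% interval -0.63 to 0.69, edgeR adjusted p = 0.958). At 96 h it was -0.26 ± 0.28 (95% interval -0.88 to 0.36, edgeR adjusted p = 0.551). No change of GFRA2 was called, and changes anywhere within these intervals remain possible.

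**Figure D1:**
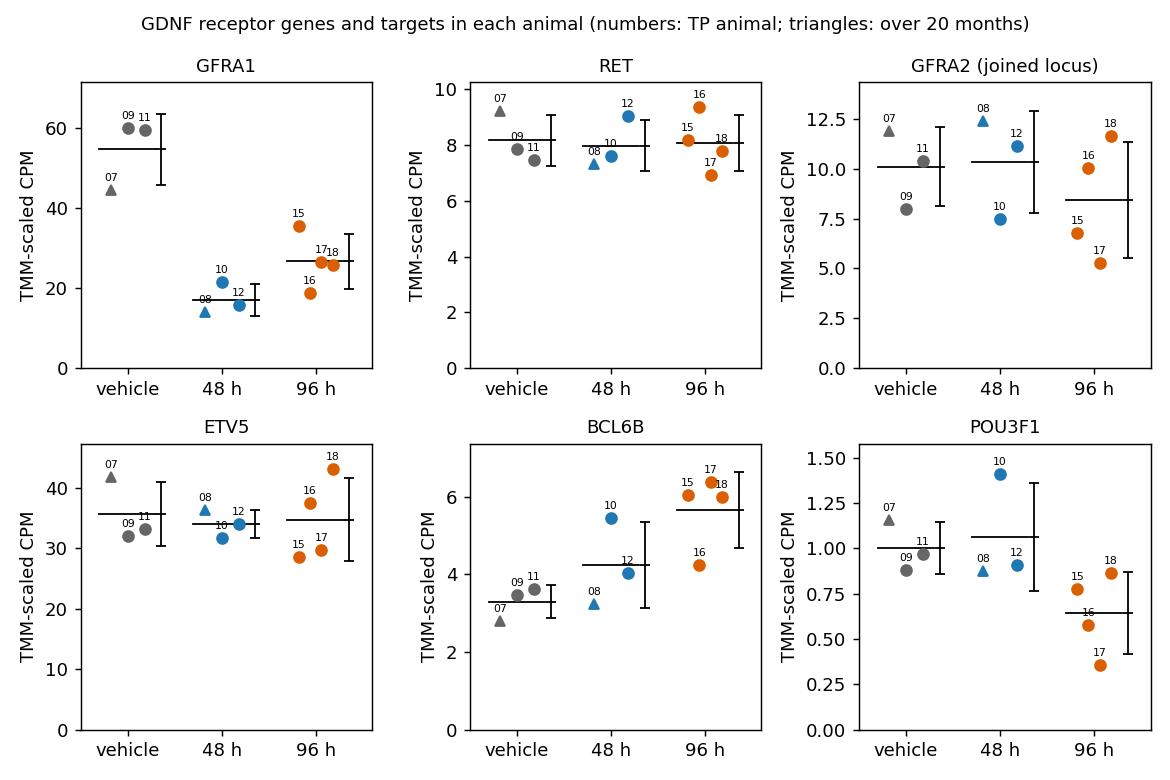
TMM-scaled CPM of the 6 measured genes in each animal, by group, with the group mean (line) and SD (bar); triangles mark the animals over 20 months and small numbers are animal numbers. GFRA1 in vehicle (44.4 to 60.0 CPM) lies above all treated animals, while the 3 groups of RET, GFRA2 and ETV5 overlap.

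ETV5 is an ETS-family transcription factor needed for stem cell upkeep in mouse testis, where Sertoli cells express it as well as germ cells. It lies on chromosome 2 from 106813298 to 106885578 on the plus strand. The vehicle animals TP07, TP09 and TP11 had 41.7, 31.9 and 33.2 CPM. The 48 h animals TP08, TP10 and TP12 had 36.25, 31.7 and 34.1 CPM, and the 96 h animals TP15 to TP18 had 28.6, 37.55, 29.8 and 43.0 CPM. The groups overlapped throughout, and the lowest and the highest of the 10 values were both at 96 h. The log2 fold changes against vehicle were -0.07 ± 0.16 at 48 h (95% interval -0.43 to 0.29) and -0.04 ± 0.15 at 96 h (95% interval -0.37 to 0.30). The edgeR adjusted p was 0.828 and 0.891. As for RET, these intervals do not reach the GFRA1 fall of the same comparison.

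BCL6B, a transcriptional repressor related to BCL6, lies on chromosome 16 from 6984040 to 6991292 on the plus strand. It was at 2.81, 3.47 and 3.62 CPM in TP07, TP09 and TP11. At 48 h it was at 3.24, 5.45 and 4.04 CPM in TP08, TP10 and TP12. At 96 h it was at 6.05, 4.23, 6.38 and 5.99 CPM in TP15 to TP18. All 96 h animals were above all vehicle animals, and the 48 h animals overlapped both groups. Means were 3.30 ± 0.433, 4.24 ± 1.12 and 5.66 ± 0.969 CPM.

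BCL6B was called higher at 96 h against vehicle, with a log2 fold change of 0.78 ± 0.24 (95% interval 0.26 to 1.30, edgeR adjusted p = 0.0448). The call is marginal: it was lost in 12 of 22 alternative analyses, in which the log2 fold change stayed between 0.54 and 0.89 and the edgeR, DESeq2 or limma adjusted p ran from 0.00866 to 0.283. Leaving out any of TP07, TP09, TP11, TP12, TP15, TP17 and TP18 ended it. The authors' deposited table gives 0.78 with an adjusted p of 0.0681. At 48 h the log2 fold change was 0.36 ± 0.25 (edgeR adjusted p = 0.375).

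BCL6B is also expressed by endothelial cells, so their markers are set beside it. The summed CPM of 4 measured endothelial markers ran from 48.3 to 74.5 in vehicle, 51.9 to 115 at 48 h and 44.5 to 99.9 at 96 h. None of the 4 was called, or had an unadjusted p under 0.05, in edgeR, and DESeq2, limma voom and exactTest called 0 of them. The lowest animal was the same for BCL6B and the sum in every group: TP07 in vehicle, TP08 at 48 h and TP16 at 96 h. TP10 was highest in both at 48 h, so the order of the 48 h animals was the same. The highest animals differed at 96 h (TP17 for BCL6B, TP15 for the sum) and in vehicle (TP11 and TP09). The part of endothelial RNA in the BCL6B values was not tested.

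POU3F1, a POU-domain transcription factor also known from myelinating Schwann cells, has 1 exon on chromosome 1 from 37249570 to 37252629 on the minus strand. It was the least abundant member, with 7 to 39 counts per library. It was at 1.16, 0.878 and 0.969 CPM in TP07, TP09 and TP11, and at 0.877, 1.41 and 0.906 CPM in TP08, TP10 and TP12. At 96 h it was at 0.775, 0.579, 0.354 and 0.862 CPM in TP15 to TP18. All 96 h animals were below all animals of the other groups. POU3F1 passed the table's cut-off of 1 CPM only through 3 libraries outside the 96 h group (2 vehicle, 1 at 48 h), so this order was favoured by the filter and supports nothing. The other 5 measured genes reached the cut-off in all 10 libraries. EdgeR called neither difference of POU3F1. The log2 fold change of 96 h was -0.63 ± 0.34 against vehicle (95% interval -1.39 to 0.13, adjusted p = 0.222) and -0.71 ± 0.34 against 48 h (95% interval -1.47 to 0.04, adjusted p = 0.26). Counting error alone is wide here: the 7 counts of TP17 have an exact 95% Poisson interval of 2.81 to 14.4. The summed CPM of 9 Schwann cell and nerve markers ran from 175 to 191 in vehicle, 197 to 270 at 48 h and 195 to 220 at 96 h, and their part in the POU3F1 values was not tested.

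**Figure D2:**
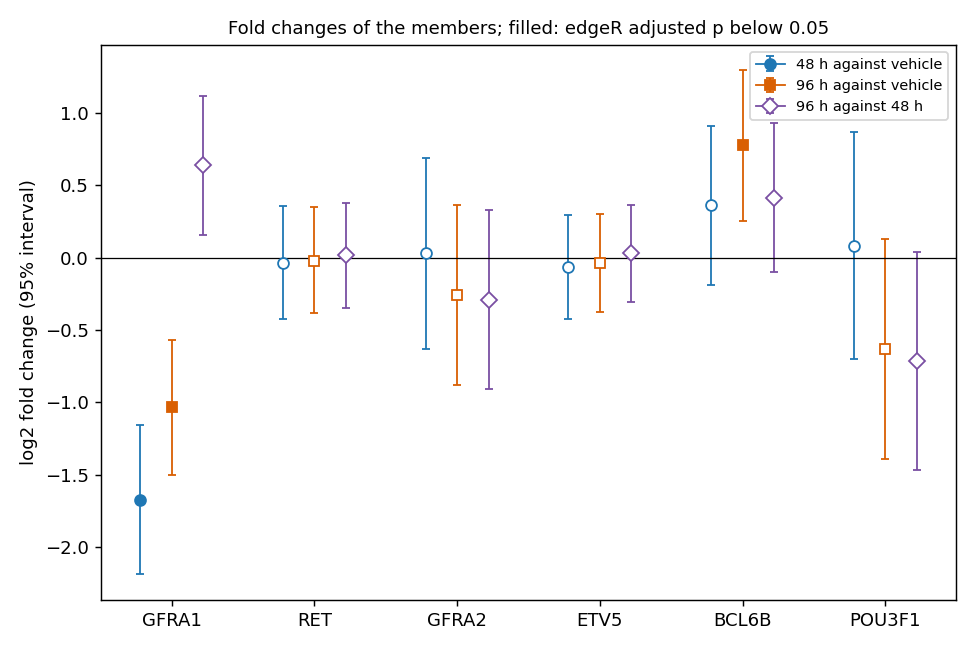
Log2 fold changes of the 6 measured genes with 95% intervals for 48 h against vehicle (circles), 96 h against vehicle (squares) and 96 h against 48 h (diamonds); filled symbols have an edgeR adjusted p below 0.05. GFRA1 is filled at -1.67 and -1.03, BCL6B at 0.78, and all other symbols are open.

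Levels per exonic kilobase allow the genes to be ordered against each other. In vehicle the order was ETV5 (7.81 ± 1.17 CPM per kb), GFRA1 (4.25 ± 0.692), GFRA2 (2.86 ± 0.558), RET (0.960 ± 0.108), BCL6B (0.792 ± 0.104) and POU3F1 (0.327 ± 0.0463). The lowest vehicle value of GFRA1, 3.46 CPM per kb, lay just above the highest of GFRA2, 3.36. At 48 h GFRA1 (1.10 to 1.68 CPM per kb) lay below GFRA2 (2.11 to 3.50) in every animal. On this scale the order of the co-receptors was turned, but not in plain CPM. There GFRA1 stayed above GFRA2 in TP08 (14.1 against 12.4), TP10 (21.6 against 7.47) and TP12 (15.7 against 11.1). The scale divides by all merged exonic bases, 12845 for GFRA1 and 3533 for the joined GFRA2 locus, so the order depends on these lengths. At 96 h the per-kilobase ranges of GFRA1 and GFRA2 overlapped, as those of RET and BCL6B did at both treated times.

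The ratio of co-receptor to kinase shifted with GFRA1. Per exonic kilobase there was 3.20 to 5.29 times as much GFRA1 as RET in the vehicle animals, with a mean of 4.52 ± 1.15. The ratio was 1.15 to 1.88 at 48 h (mean 1.44 ± 0.391) and 1.34 to 2.88 at 96 h (mean 2.24 ± 0.663). The vehicle animals did not overlap either treated group, and the treated groups overlapped each other. The size of the ratio depends on the exonic lengths used, 12845 bases for GFRA1 and 8522 for RET, which are the same in every animal.

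In whole testis, fewer cells of a type and less RNA per cell cannot be told apart, so germ cell markers of the same libraries are set beside GFRA1. The part of the GFRA1 RNA that comes from germ cells was not tested. The summed CPM of 10 measured germ cell markers ran from 522 to 701 in vehicle, 366 to 541 at 48 h and 282 to 483 at 96 h. Of these markers 1 (DAZL) fell at 48 h and 6 fell at 96 h, with median log2 fold changes of -0.45 and -0.78. That is 10% and 60%, beside 3.2% and 6.65% of all symbol loci called lower. DDX4, an RNA helicase of germ cells, was at 73.9 ± 7.30 CPM in vehicle, 53.2 ± 9.98 at 48 h and 41.3 ± 9.47 at 96 h. Of 10 measured markers of undifferentiated spermatogonia 1 (FOXO1) fell at 48 h and 5 fell at 96 h, which is 10% and 50%. Their summed CPM ran from 435 to 482, 295 to 340 and 265 to 330 in the 3 groups. NANOS2 and ID4, which fell at 96 h, are in this list and also among the GDNF-regulated genes below.

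The GFRA1 level relative to the germ cell markers was taken per animal as its log2 CPM minus the mean log2 CPM of the 10 markers, with a pseudocount of 0.5. In vehicle this difference was -0.04 in TP07, 0.73 in TP09 and 0.44 in TP11. At 48 h it was -1.35, -0.20 and -1.02 in TP08, TP10 and TP12. All 48 h animals were below all vehicle animals, and the means differed by -1.24 (exact two-sided permutation p = 0.1, the smallest that 3 against 3 animals allow). The gap between the groups was narrow, from -0.20 in TP10 to -0.04 in TP07.

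At 96 h the same log2 difference was 0.72 in TP15, -0.38 in TP16, 0.58 in TP17 and -0.37 in TP18. It overlapped the vehicle values, with a difference in means of -0.24 (exact two-sided permutation p = 0.457, smallest possible 0.0571). Against 48 h the 96 h mean was higher by 1.00 (exact two-sided permutation p = 0.171), and the groups overlapped. With 3 and 4 animals a group, none of these exact tests could pass 0.05, so they say nothing for or against a difference. TP15 and TP17, the animals with the higher values, had the lowest germ cell marker means of the group.

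**Figure D3:**
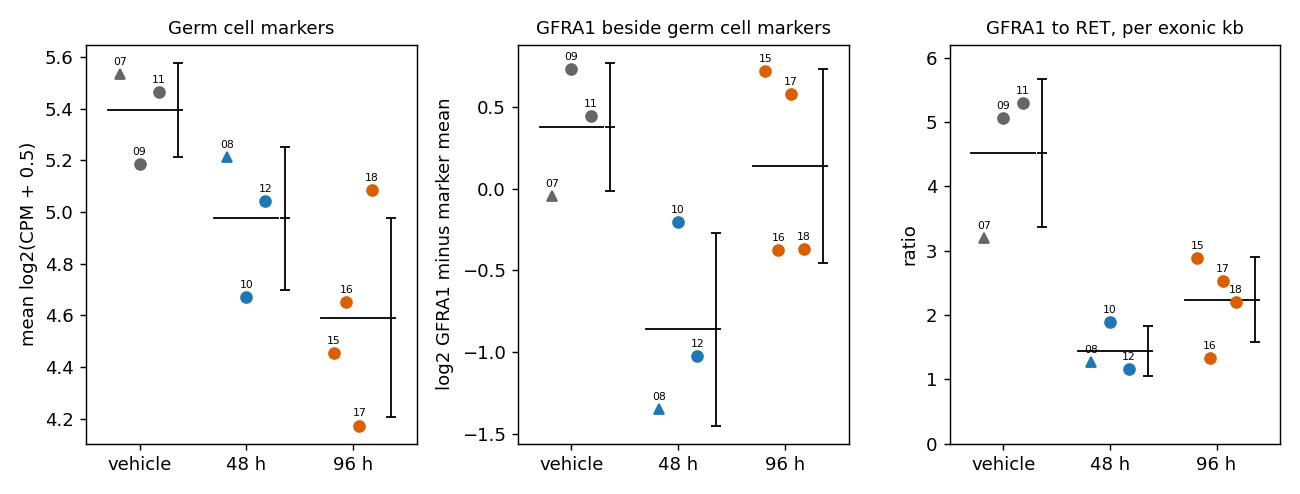
Per animal, the mean log2(CPM + 0.5) of 10 germ cell markers (left), log2 GFRA1 minus that mean (middle) and the ratio of GFRA1 to RET per exonic kilobase (right), with group means and SD; triangles mark the animals over 20 months. The middle values are lowest at 48 h (-1.35 to -0.20) and spread from -0.38 to 0.72 at 96 h.

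RET, GFRA2 and ETV5, whose CPM stayed near the vehicle level while the germ cell markers were lower, had higher values on this relative scale in the treated groups. The log2 difference of ETV5 from the germ cell markers was -0.23 ± 0.14 in vehicle, 0.13 ± 0.18 at 48 h and 0.53 ± 0.18 at 96 h, with no overlap between any 2 groups. For RET it was -2.28 ± 0.18, -1.90 ± 0.31 and -1.50 ± 0.36 in the same order. For GFRA2 it was -2.01 ± 0.10, -1.57 ± 0.09 and -1.49 ± 0.17. These values were not tested.

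Of 65 other genes listed for the pathway, 56 were measured. At 48 h 7 of them (12.5%) were called higher and 5 (8.93%) lower, beside backgrounds of 14.8% and 3.2%. At 96 h 8 (14.3%) were called in each direction, beside 17.3% higher and 6.65% lower. The median log2 fold change of the 56 genes was 0.03 at 48 h and 0.02 at 96 h, against 0.08 for all symbol loci at both times. The median of the 6 measured members was -0.001 at 48 h and -0.15 at 96 h. Without the animals over 20 months, and so with fewer animals a group, the pathway calls numbered 2 at 48 h and 5 at 96 h. Leaving out single animals gave 4 to 13 calls at 48 h, with 6 or fewer without any of TP07, TP08, TP09, TP11 and TP12. It gave 5 to 16 calls at 96 h, with 10 or fewer without any of TP07, TP09, TP11 and TP17.

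Among the ligands, GDNF itself and PSPN (persephin) had no row under their own symbol in the count table, and their levels were not analysed here. NRTN, which encodes neurturin, the ligand preferred by GFRA2, was at 4.46, 4.83 and 3.46 CPM in TP07, TP09 and TP11. It was at 8.46, 6.24 and 6.73 CPM in TP08, TP10 and TP12 and at 5.62 to 7.80 CPM at 96 h, above vehicle in every animal. Its log2 fold changes were 0.75 ± 0.21 at 48 h (edgeR adjusted p = 0.0416) and 0.66 ± 0.20 at 96 h (edgeR adjusted p = 0.0452).

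ARTN, which encodes artemin, the ligand of GFRA3, was at 1.12, 1.96 and 2.197 CPM in the vehicle animals. It was at 2.87, 4.11 and 3.53 CPM at 48 h and at 3.11 to 4.26 CPM at 96 h, again with no overlap. The log2 fold changes were 0.99 ± 0.28 (edgeR adjusted p = 0.0423) and 1.09 ± 0.27 (edgeR adjusted p = 0.0204). Both ligand calls are close to the threshold. NRTN lost its call in 9 of 22 alternatives at 48 h and 14 of 22 at 96 h, and ARTN in 13 of 21 and 4 of 21.

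Of the other receptor genes, GFRA3, GFRA4 and NCAM1 were measured and none was called in any comparison. GFRA3, the artemin co-receptor, was at 3.35 ± 0.691, 3.28 ± 0.693 and 3.004 ± 0.952 CPM in vehicle, 48 h and 96 h. NCAM1, an adhesion molecule that can act as an alternative GDNF receptor, was at 12.1 ± 3.13, 13.1 ± 2.01 and 16.8 ± 4.10 CPM. GFRA1 was the 1 called gene among the 6 measured receptors, lower at 48 h and at 96 h against vehicle. That is 16.7% lower and 0% higher at each time. Of all symbol loci, 3.2% were lower and 14.8% higher at 48 h, and 6.65% lower and 17.3% higher at 96 h. The list was made with the GFRA1 fall known, so this count singles out nothing.

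In the RET signal relay, 3 of 30 measured genes were higher and 4 lower at 48 h, and 4 were called in each direction at 96 h. That is 10.0% higher and 13.3% lower at 48 h, beside 14.8% and 3.2% of all symbol loci, and 13.3% each way at 96 h, beside 17.3% and 6.65%. Among those called, GRB10 and PIK3CA were lower and AKT2 higher at 48 h, and GRB10 and DOK5 were lower and AKT2 higher at 96 h. These 4 genes were added after their values were seen. Their calls were often lost: AKT2 in 7 of 22 alternatives at 48 h and 15 of 22 at 96 h, PIK3CA in 10 of 22, GRB10 in 8 of 22 at each time and DOK5 in 8 of 21. IRS2, an adaptor between receptor kinases and PI3 kinase, had the largest fall in the list at 48 h. It was at 18.6, 20.6 and 16.2 CPM in TP07, TP09 and TP11 and at 6.95, 7.36 and 6.34 CPM in TP08, TP10 and TP12. The 96 h values ran from 7.89 to 14.5 CPM, between the other groups. Its log2 fold changes were -1.42 ± 0.21 at 48 h (edgeR adjusted p = 0.00232) and -0.66 at 96 h (edgeR adjusted p = 0.0387, lost in 10 of 22 alternatives).

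SRC, the membrane-associated kinase, rose from 18.1 ± 1.78 CPM to 31.9 ± 4.67 at 48 h and 37.2 ± 5.93 at 96 h. The log2 fold changes were 0.82 ± 0.15 and 1.04 ± 0.15 (edgeR adjusted p = 0.0071 and 0.00143). PTPN11, the phosphatase SHP2, rose from 88.0 ± 6.80 to 127 ± 9.01 and 121 ± 16.3 CPM (edgeR adjusted p = 0.0133 and 0.0162). SRC lost its call in 1 of 22 alternatives at 48 h and 0 of 22 at 96 h, and PTPN11 in 2 and 4 of 22.

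Of 13 genes listed as GDNF-regulated in rodent spermatogonia, 11 were measured, the members ETV5, BCL6B and POU3F1 among them. None was called at 48 h by edgeR, DESeq2 or limma voom, with 2 at an unadjusted p under 0.05, and exactTest called ID4. At 96 h BCL6B was called higher and 3 genes lower. That is 9.09% higher and 27.3% lower, beside 17.3% and 6.65% of all symbol loci. NANOS2, an RNA-binding protein that blocks differentiation of mouse stem cells, was at 7.33, 6.31 and 4.72 CPM in the vehicle animals and at 1.06, 2.46, 0.354 and 2.39 CPM in TP15 to TP18. Its log2 fold change at 96 h was -1.94 ± 0.51 (edgeR adjusted p = 0.0274). MYCN, a growth-promoting transcription factor, was at 18.8 ± 4.03 CPM in vehicle and 10.0 ± 1.96 at 96 h. The log2 difference was -0.91 ± 0.19 with an edgeR adjusted p of 0.00961. ID4, an inhibitor of helix-loop-helix factors that marks mouse stem cells, fell from 52.3 ± 4.48 to 35.8 ± 7.86 CPM (edgeR adjusted p = 0.0465). The call was lost in 7 of 22 alternatives for NANOS2, 2 of 22 for MYCN and 11 of 22 for ID4. These 3 falls stand beside the lower germ cell marker sums at 96 h, whose part in them was not tested.

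Among 13 genes that ERK signalling induces or that restrain it, 2 were higher and 1 lower at both times. SPRY1, an inhibitor of receptor kinase signalling, fell from 30.0 ± 4.20 CPM to 16.2 ± 1.66 at 48 h and 19.4 ± 3.73 at 96 h. The log2 fold changes were -0.89 ± 0.17 (edgeR adjusted p = 0.00814) and -0.63 ± 0.16 (edgeR adjusted p = 0.0228). DUSP6, an ERK phosphatase, rose from 31.6 ± 0.497 to 42.9 ± 3.35 and 44.2 ± 4.12 CPM (edgeR adjusted p = 0.0196 and 0.00887), with its 48 h call lost in 6 of 22 alternatives. PHLDA1 rose from 5.53 ± 0.851 to 10.2 ± 3.38 and 12.2 ± 2.42 CPM (edgeR adjusted p = 0.0475 and 0.0113), with its 48 h call lost in 16 of 22 alternatives. Of the list 15.4% were called higher and 7.69% lower at each time, near the shares of all symbol loci (14.8% and 3.2% at 48 h, 17.3% and 6.65% at 96 h). These genes are active in many testicular cell types, and markers of other cell types were called higher at 48 h in the same libraries: 3 of 8 Sertoli, 5 of 6 Leydig and 2 of 5 peritubular markers, beside 14.8% of all symbol loci. The median log2 fold change of the Sertoli markers was 0.09, against 0.08 for all symbol loci. The part of these cell types in the ERK gene values was not tested.

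Between 48 h and 96 h edgeR called 0 of the 56 pathway genes, beside 0.445% of all symbol loci lower and 1.19% higher. At shares this small, 0 calls in 56 genes say nothing particular about the pathway. An unadjusted p under 0.05 was found for 6 relay genes, 2 ERK genes and MYCN. DESeq2 called the relay genes DOK6, SOS1, IRS2 and HRAS, and limma voom and exactTest called 0. The share of all loci that DESeq2 called was not taken, so its calls have no background beside them.

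**Figure D4:**
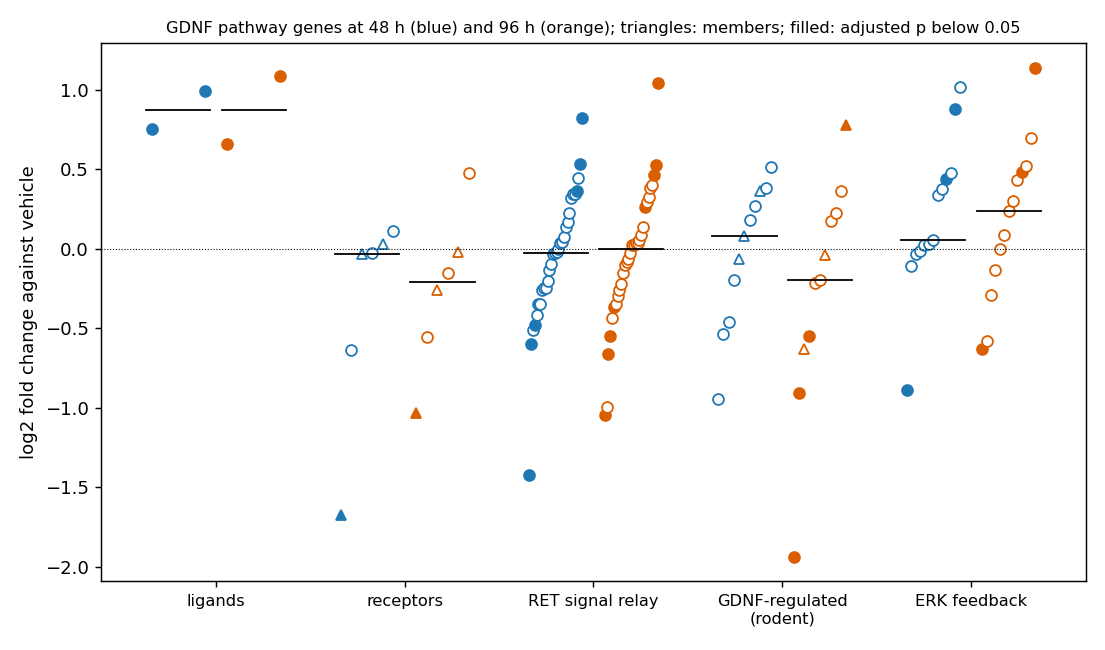
Log2 fold change against vehicle of each measured gene in the 5 pathway lists at 48 h (blue) and 96 h (orange); triangles are the GDNF receptor and target genes described first, filled symbols have an edgeR adjusted p below 0.05 and lines are list medians. Both ligand genes lie between 0.66 and 1.09, GFRA1 is the lowest receptor gene at both times, and the relay and ERK lists spread to both sides of 0.

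Profiles most like that of GFRA1 over the 10 animals were sought among 13239 loci with a symbol and a mean of at least 1 CPM. Likeness was the root mean square difference of log2 values after centring each profile on its own mean, for which the median locus had 0.768. The 5 closest were GSTT1 (0.141), FBXO32 (0.166), ROBO1 (0.196), GRM7 (0.220) and SNED1 (0.225). GSTT1, a glutathione transferase, was at 9.85 ± 2.06 CPM in vehicle, 3.02 ± 0.663 at 48 h and 4.61 ± 1.01 at 96 h. FBXO32, a ubiquitin ligase subunit, was at 44.7 ± 4.57, 14.0 ± 1.42 and 23.9 ± 5.69 CPM. ROBO1, a guidance receptor, was at 1409 ± 354, 450 ± 145 and 743 ± 134 CPM. These genes were picked for that likeness, so their group order is no finding.

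For BCL6B the 5 closest profiles were SH3TC1 (0.0974), PABPC1 (0.108), HOXD8 (0.108), RGS14 (0.108) and IRAK3 (0.113), where the median locus had 0.405. SH3TC1 was at 8.69 ± 1.35 CPM in vehicle, 11.5 ± 2.43 at 48 h and 14.7 ± 3.51 at 96 h. Likeness is smaller in number for a flatter profile, so the values of the 2 searches are not on a common footing.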

How the data were processed

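Per the submitters' processing notes, cutadapt 1.9.1, HTSeq 0.6.1p1, Cufflinks 2.2.1, Bowtie2 2.2.8, TopHat2 2.1.1 and edgeR were used with the rheMac8 genome. The strand setting of counting is not given in the sources used here. Whole-number counts for each locus and animal were deposited and are the basis of every test. The deposited CPM values, scaled to the whole library, gave only the unfiltered totals and the number of libraries that reach 1 CPM. Log2 fold changes and p-values of the authors appear only in sentences that name their deposited table. Coordinates come from the deposited transcript models.

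Counts were fitted with edgeR 4.0.16 in R 4.3.3 (TMM, robust glmQLFit, glmQLFTest) as 1 model of 3 group means over all 10 libraries and 26813 loci. P-values were adjusted by the Benjamini-Hochberg method over all loci, with calls at 0.05. SEs derive from the F statistic. The biological coefficient of variation was 0.259. The code was tested on simulated data. For 320 loci a symbol came from the RefSeq gene table of another macaque assembly by gene ID. Replicate pairs differed by more than sampling noise (chi-square per degree of freedom 15.8 to 49.9), so each library counts once. A floor of 3 counts equals 0.0988 to 0.137 CPM. Floors and Poisson intervals cover counting error only. Kept loci hold 98.53% to 98.96% of each library's unfiltered total.

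Members and lists were chosen with earlier results of these data known, the GFRA1 fall among them, and their counts are no independent support. Named genes were all members, up to 4 called genes per pathway list with the smallest p, up to 2 genes per marker list, and the 5 closest profiles of each called member. GFRA3, NCAM1, further relay genes and the 96 h value of IRS2 were added with values known. Some genes that the rule named are left out of the text, while the counts include them.

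Alternatives were RLE and upper-quartile scaling, TMM factors from symbol loci, minimums of 10 and 100 counts in 3 libraries, exactTest, DESeq2 1.42.0, limma 3.58.1 voom, the compared groups alone, age as covariate or block, omission of the animals over 20 months, and omission of each animal. Tables were made with Python 3.11.15, scipy 1.17.1, numpy 2.4.6 and pandas 2.3.3, and plots with matplotlib 3.10.9.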

Additional observations from a re-analysis of the deposited data

How the results depend on the processing

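GFRA1 was called lower in all 22 alternatives at 48 h (log2 fold change -1.88 to -1.55) and at 96 h (-1.28 to -0.91), and in none for 96 h against 48 h (0.41 to 0.84). Upper-quartile scaling moved the median of all loci at 48 h (-0.07, now -0.20) and 96 h (-0.01, now -0.16). TMM factors from symbol loci moved it to -0.18 at 48 h. Under upper-quartile scaling, symbol-locus factors, either age term and omission of the animals over 20 months, 1 member was called at 96 h instead of 2, and leaving out single animals gave 1 to 2, the lost member being BCL6B.

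The number of pathway calls varied with the animals left out and, at 96 h, with the age terms. At 48 h, 12 calls became 14 with age as a covariate, 11 with age class as a block, 2 without the animals over 20 months (1 fewer in each of these groups) and 4 to 13 without single animals (fewest without TP09; 6 without TP07 or TP12, 5 without TP08 or TP11). At 96 h, 16 calls became 8 with age as a covariate, 2 with age class as a block, 5 without the animals over 20 months and 5 to 16 without single animals (5 without TP07 or TP11, 7 without TP09, 10 without TP17). For 96 h against 48 h, 0 became 4 under DESeq2 and 0 to 1 without single animals. The cause was not tested, beyond the smaller number of animals in the omissions.

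Directions that turned belong to uncalled values. For RET at 48 h, exactTest and the compared groups alone gave 0.010, omission of the older animals 0.119 and single omissions -0.13 to 0.06. For RET at 96 h, the age covariate gave 0.018, the age block 0.045, omission of the older animals 0.076 and single omissions -0.10 to 0.076. For RET at 96 h against 48 h, upper-quartile scaling gave -0.004, exactTest and the compared groups alone -0.001, omission of the older animals -0.043 and single omissions -0.067 to 0.114. ETV5 gave 0.015 at 48 h without the older animals and -0.14 to 0.063 without single animals. At 96 h ETV5 gave 0.088 with the age covariate, 0.098 with the age block, 0.094 without the older animals and -0.15 to 0.094 without single animals. Its 96 h against 48 h value ran from -0.089 to 0.114 without single animals. GFRA2 gave -0.093 (upper quartile), -0.076 (symbol loci), -0.038 (minimum of 100 counts) and -0.12 to 0.22 (single omissions) at 48 h. The age block turned it to 0.139 at 96 h and 0.118 for 96 h against 48 h. POU3F1 at 48 h gave -0.044 (upper quartile), -0.021 (symbol loci) and -0.17 to 0.20 (single omissions). The minimum of 100 counts removed POU3F1 and ARTN.

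The labels give the groups no shared replicate numbers. Vehicle and 48 h animals match by age class, and with age class as a block GFRA1 gave -1.68 at 48 h (edgeR adjusted p = 0.00273). With 3 or 4 animals a group, the small changes estimated for RET, GFRA2 and ETV5 were not called, and others within their intervals remain possible. All 96 h animals were 14 months old, so age and treatment overlap there.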

Other observations

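Loci close to the pathway by name were looked at after their values were seen. GFRAL, a distant relative of the GDNF co-receptors that binds GDF15 in the hindbrain, was measured in testis at 4.65 ± 1.23 CPM in vehicle, 4.60 ± 1.10 at 48 h and 6.92 ± 0.919 at 96 h. All 96 h animals (5.67 to 7.81 CPM) lay above all other animals. Neither difference was called by edgeR: the log2 fold change was 0.57 ± 0.25 against vehicle (adjusted p = 0.127) and 0.59 ± 0.25 against 48 h (adjusted p = 0.21). GDNF-AS1, annotated as antisense to GDNF, was at 1.43 ± 0.215, 0.987 ± 0.557 and 1.18 ± 0.250 CPM, with overlap between groups, and was not called. Since the strand setting of counting is not given, its reads cannot be told apart from those of GDNF.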
